A study of Caenorhabditis elegans with 2 samples.

Results

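Mitochondrial ribosomal protein genes are the nuclear genes for the proteins of the ribosome inside mitochondria. They were taken as the protein-coding genes of the Ensembl WBcel235 annotation whose symbol starts with mrpl-, for the large subunit, or mrps-, for the small subunit. This gave 70 genes, 41 of the large and 29 of the small subunit, out of 19973 nuclear protein-coding genes. The rule uses the symbols alone and no peak value.

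The measurements were chromatin immunoprecipitation sequencing (ChIP-seq) of T26A8.4, annotated with a C3H1-type zinc finger, in whole Caenorhabditis elegans. The worms were of strain OP692, which carries the integrated transgene wgIs692 with T26A8.4 fused to a TY1, EGFP and 3xFLAG tag, plus unc-119(+) as a rescue of the unc-119(tm4063) mutation. They were L4 larvae of 48 hours, grown from bleached and starved L1 larvae, and chromatin was precipitated with an antibody against GFP. The study has 1 group of 2 biological replicates and no second condition. The fusion protein was measured, not untagged T26A8.4, and whole larvae mix all tissues. Peak lists hold no expression values, so no cell type marker could be checked.

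The mitochondrial ribosome translates the few proteins that mitochondrial DNA encodes, which are core subunits of the respiratory chain and ATP synthase. Its RNA is made in the organelle and its proteins are made in the cytosol and imported, so the nuclear and mitochondrial genomes have to supply matched parts. In C. elegans, knockdown of members such as mrps-5 is known to switch on the mitochondrial unfolded protein response and to lengthen life.

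A summit is the base at which a peak is highest. A gene is called bound here when a summit of the combined set, the thresholded list made from both replicates, lay in its promoter window, which covers 1000 bp before its annotated start and 200 bp after it. Peak signal is the authors' own deposited score per peak, with no stated scale, and it is compared within a list. The combined set held 2993 summits, the replicates' own thresholded lists 1933 and 2141, and their ranked lists, which keep weak regions, 70405 and 66732. Read depth is not in the peak lists and is unknown. The share of all protein-coding genes under the same rule is given as the background.

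The DNA at 6 of the 12 summits counted for bound members is shown, chosen by sequence and subunit and not by signal. Each stretch below is a combined-set summit with 50 bp to either side, read from the RefSeq WBcel235 genome on the strand of the member, 5′ to 3′. The first 4 were chosen because they hold the letters CGCAAAC or the reverse complement GTTTGCG, which are in capitals and were noticed by reading the sequences, so the shared letters are how they were picked. The last 2 are the summits of the bound small subunit genes, which lack it. The locations are chrII:156079-156179 on the minus strand for mrpl-28, chrIII:10707204-10707304 on the plus strand for mrpl-12 and chrIII:1202356-1202456 on the minus strand for mrpl-45. They are chrV:12728397-12728497 on the plus strand for mrpl-49, chrIV:14767835-14767935 on the minus strand for mrps-7 and chrIV:4660458-4660558 on the minus strand for mrps-21. All 6 stretches are annotated as intergenic at the summit.
mrpl-28: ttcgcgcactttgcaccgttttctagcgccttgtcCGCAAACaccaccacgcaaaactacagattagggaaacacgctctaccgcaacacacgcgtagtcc
mrpl-12: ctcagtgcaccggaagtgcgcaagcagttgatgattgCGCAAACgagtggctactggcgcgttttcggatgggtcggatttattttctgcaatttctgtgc
mrpl-45: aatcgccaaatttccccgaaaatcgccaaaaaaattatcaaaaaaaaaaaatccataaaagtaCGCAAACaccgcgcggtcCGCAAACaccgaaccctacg
mrpl-49: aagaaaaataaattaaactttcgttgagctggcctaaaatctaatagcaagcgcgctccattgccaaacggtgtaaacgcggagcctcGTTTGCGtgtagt
mrps-7: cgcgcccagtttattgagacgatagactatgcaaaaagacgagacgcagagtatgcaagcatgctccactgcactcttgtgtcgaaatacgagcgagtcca
mrps-21: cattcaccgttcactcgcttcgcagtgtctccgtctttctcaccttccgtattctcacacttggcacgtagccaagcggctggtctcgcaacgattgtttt

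T26A8.4 was called at a minority of the family, mostly at large subunit genes and with moderate signal, while weak peaks were present near most members. In the combined set 12 of the 70 genes were bound (17.1%, 95% Wilson interval 10.1 to 27.6), against 1410 of 19973 protein-coding genes (7.06%). The large subunit had 10 of 41 bound (24.4%, 13.8 to 39.3) and the small subunit 2 of 29 (6.9%, 1.91 to 22.0). The small subunit's share was thus close to the background and the large subunit's above it, but the intervals of the subunits overlap and their difference was not tested. Intervals cover counting error only, and genes are not independent replicates. Among autosomal genes 7.08% were bound and among genes with a gene-class symbol 8.76%, 2 narrower backgrounds added after the values were seen, of which the first leaves out X, where no member lies.

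The count depended on the list. The conservative list had 11 of 70 members (15.7%) against 6.63% of all genes. Replicate 1's own thresholded list had 9 of 70 (12.9%) against 4.84%, and that of replicate 2 had 6 of 70 (8.57%) against 5.5%. The 6 members called in replicate 2, mrpl-12, mrpl-23, mrpl-28, mrpl-55, mrps-7 and mrps-21, were all called in replicate 1 too, and both small subunit genes are among them. The members' share was therefore further from the background in replicate 1 and the combined set than in replicate 2.

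**Figure D1:**
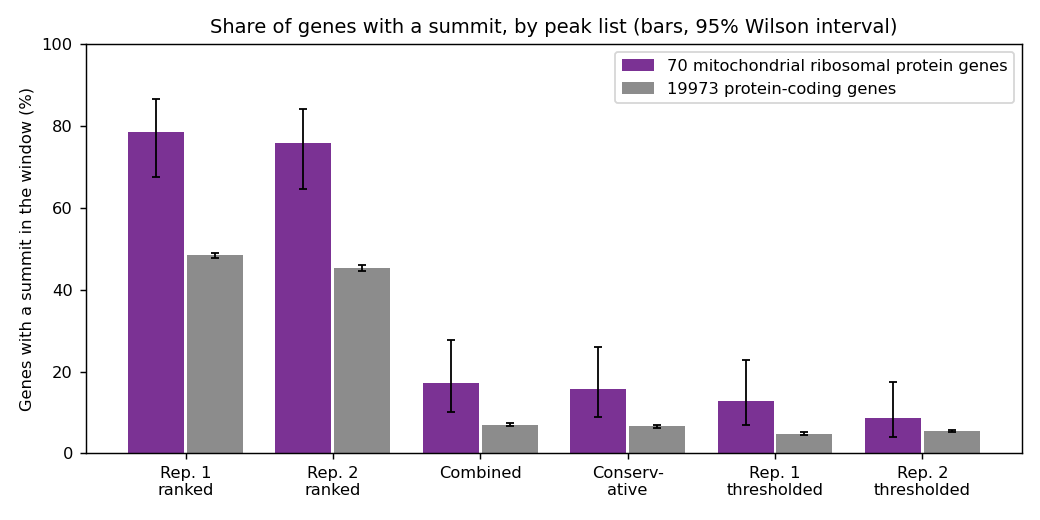
Percent of genes with a summit in the promoter window, for the 70 mitochondrial ribosomal protein genes (purple) and all 19973 protein-coding genes (grey), in each of 6 peak lists. Bars start at 0 and lines are 95% Wilson intervals, which cover counting error only. Members stand at 78.6% and 75.7% in the ranked lists and at 8.57% to 17.1% in the thresholded lists, each above its grey bar, with overlapping intervals in the thresholded list of replicate 2.

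The peak with the highest signal was at mrpl-28, a large subunit protein of the family of bacterial L28. Its combined-set signal was 319.5, which ranked 248 of 2993, and replicates 1 and 2 gave 148.8 and 178.0. The summit lay 120 bp upstream of the start in intergenic DNA on chromosome II, and no other protein-coding window held it. The nearest upstream gene, etr-1, starts 6364 bp away on the opposite strand. mrpl-28 thus combined a high signal in both replicates with a summit in its window alone.

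At mrpl-12, whose bacterial counterpart L7/L12 forms the stalk that recruits translation factors, the combined signal was 245.9, with 127.0 in replicate 1 and 113.1 in replicate 2. Its summit lay 507 bp upstream, and it was nearer to a pair of genes read in the opposite direction, Y39A1A.22 at 226 bp and Y39A1A.21 at 232 bp. At mrpl-23, of the family of bacterial L23 near the peptide exit tunnel, the combined signal was 208.1, with 104.1 and 109.4 in replicates 1 and 2. That summit lay 993 bp upstream in an intron of fars-1, a phenylalanyl-tRNA synthetase gene that ends 95 bp before mrpl-23 on the same strand. An annotated snoRNA, T08B2.13, and a noncoding RNA, T08B2.14, lie within 200 bp of it. Both replicates were high at mrpl-12 and mrpl-23, but each summit has other candidate genes or transcripts beside it.

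The bound small subunit genes were mrps-21 and mrps-7. mrps-7 is of the family of bacterial S7, which binds the small subunit RNA in the head of the ribosome, and mrps-21 of that of bacterial S21. At mrps-21 the combined signal was 222.0, with 113.6 in replicate 1 and 93.0 in replicate 2. Its summit lay 991 bp upstream, just inside the window, beyond the whole of F29B9.11, and was 307 bp from the start of that gene and 483 bp from that of jmjd-1.2. jmjd-1.2 encodes a histone demethylase known for a role in the mitochondrial stress response of worms. At mrps-7 the combined signal was 186.4, with 88.3 and 107.5 in replicates 1 and 2, and the summit lay 155 bp upstream, against 316 bp from the divergent gene Y57G11C.3. So mrps-7 was the small subunit gene whose own start was nearest to a combined-set summit.

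The other bound genes are of the large subunit and had combined signals from 100 to 143.8. mrpl-55, mrpl-50, mrpl-41 and mrpl-49 encode proteins that have no counterpart in bacterial ribosomes. mrpl-55 had 143.8, with 68.2 in replicate 1 and 78.1 in replicate 2, and a summit 177 bp upstream that no other window held. It was the weakest member to pass in both replicates' own lists.

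mrpl-50 and mrpl-41 had their summits inside the gene. The summit of mrpl-50 lay 131 bp downstream of the start, in its coding exon, with signals of 137.8 combined, 75 in replicate 1 and 42.7 in replicate 2. The summit of mrpl-41 lay 83 bp downstream, also in its coding exon, with 115.4 combined, 65.3 in replicate 1 and 46.4 in replicate 2. In both cases the gene before ends close by on the same strand, cct-2, a chaperonin subunit gene, 25 bp before mrpl-50, and misc-1, a mitochondrial carrier gene, 235 bp before mrpl-41. Both passed the threshold in replicate 1 and not in replicate 2, where their signal was lower.

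mrpl-45, mrpl-49 and mrpl-18 passed in the combined set and in neither replicate's own list. mrpl-45, whose mammalian counterpart ties the ribosome to the inner membrane, had 115.0 combined, 59.2 in replicate 1 and 57.9 in replicate 2. mrpl-49 had 112.5 combined, 51.8 and 45.1, and mrpl-18, of the family of bacterial L18, had 100 combined, 44.7 and 50.6, in replicates 1 and 2. All 3 lie opposite a divergent gene. The summit was 398 bp from the start of mrpl-45 and 140 bp from that of Y119D3B.12. It was 184 bp from mrpl-49 and 335 bp from rpl-28, a gene of the cytosolic ribosome, and 212 bp from mrpl-18 and 174 bp from C14B9.8. mrpl-18 had a second summit 4 bp upstream of its start, with a signal of 29.7.

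mrpl-17, of the family of bacterial L17, was the 1 gene of the 12 that the conservative list left out. Its combined signal was 105.9, with 63.1 in replicate 1 and 32.8 in replicate 2, and it passed in replicate 1's own list and not in that of replicate 2. The summit lay 189 bp upstream of mrpl-17 and 233 bp upstream of the divergent vbh-1, an RNA helicase gene. A second summit in the coding exon, 60 bp downstream, had a signal of 9.45.

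**Figure D2:**
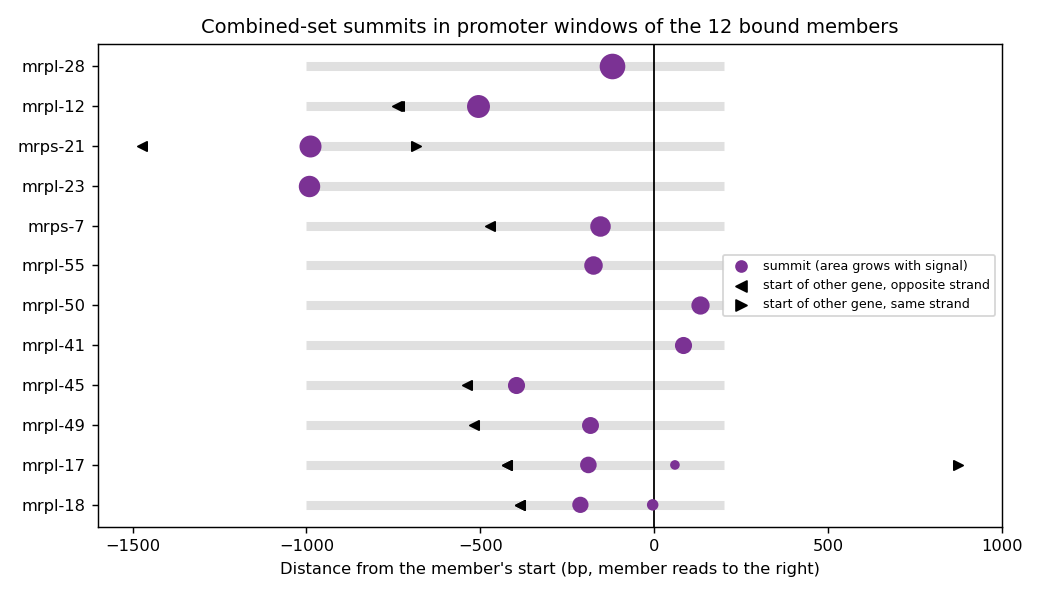
Combined-set summits in the promoter windows of the 12 bound mitochondrial ribosomal protein genes, ordered from the highest signal at the top; the horizontal axis is the distance in bp from the member's start, and the grey bar is the window. Purple circles are summits, with an area that grows with peak signal, and triangles are starts of other protein-coding genes whose window holds the same summit. mrps-21 and mrpl-23 lie at the far upstream edge, at −991 and −993 bp, and mrpl-50 and mrpl-41 lie downstream of the start.

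Many of these summits are shared with neighbours. Of the 12, 7 (58.3%) also lay in the window of another protein-coding gene, against 588 of 1410 bound genes (41.7%). The member's own start was the nearest protein-coding start for 8 of the 12. Noncoding genes were left out of both counts, so mrpl-23 is among the 8 despite the noncoding RNA genes near its summit. By annotation 9 summits were intergenic, 2 in a coding exon of the member and 1 in an intron of another gene. The median position was −186.5 bp from the start of bound members and −252 bp over all bound genes. Their combined signal had a median of 140.8 (100 to 319.5), against 145.8 (2.3 to 1883.8) over all bound genes, so the medians lay close together. mrpl-28 stood well above the median, at rank 248 of 2993, and mrpl-18 was the lowest, at rank 2083.

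The number bound changed with how a summit was given to a gene. With the nearest gene only, 9 members were bound (12.9%) against 5.49% of all genes, and the calls of mrpl-12, mrpl-45 and mrps-21 were lost. mrpl-18 was kept only through its second summit, with a signal of 29.7. With summits that lie in no other protein-coding window, a choice added after the data were seen, 5 were bound (7.14%) against 4.15%. These were all of the large subunit: mrpl-23, mrpl-28, mrpl-41, mrpl-50 and mrpl-55. A narrower window, from 500 bp upstream to 100 bp downstream, gave 8 (11.4%) against 5.16%, and a wider one, from 2000 bp upstream to 500 bp downstream, gave 16 (22.9%) against 10.1%. The wider window added mrpl-48, mrps-6, mrps-28 and mrps-33, 3 of them of the small subunit. Taking any transcript start gave 12 against 7.73%, and 1 summit per interval gave 12 against 7.03%. The 50% of combined summits with the highest signal gave 7 (10%) against 4.54%.

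Once weak peaks were counted, most members had a summit. In the ranked list of replicate 1, 55 of 70 members had a summit in the window (78.6%, 67.6 to 86.6), against 48.4% of all protein-coding genes. In that of replicate 2, 53 of 70 had one (75.7%, 64.5 to 84.2), against 45.3%. In replicate 1, 32 of 41 large (78.0%) and 23 of 29 small subunit genes (79.3%) had one. In replicate 2, 29 of 41 large (70.7%) and 24 of 29 small subunit genes (82.8%) had one. The small subunit's share was the higher in both ranked lists, the reverse of the thresholded lists. The intervals of the subunits overlap in both replicates, and the difference was not tested. Both lists held a summit for 48 members (68.6%), against 37.3% of all genes, and neither held one for 10 (14.3%), against 43.6%. The background was 49.4% and 46.1% over autosomal genes, and 51.2% and 48.0% over genes with a gene-class symbol, in replicates 1 and 2.

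Among genes with a ranked summit, members, bound ones included, had medians close to those of all genes, while the subunits differed. Over all 70 members, with 0 where no summit was listed, the median of the highest signal was 18.2 in replicate 1 and 21.4 in replicate 2, and over all protein-coding genes it was 0 in both. Over genes with a summit it was 25.2 for members and 23.7 for all genes in replicate 1, and 26.7 for members and 23.1 for all genes in replicate 2. By subunit this median was 32.0 and 33.5 for the large and 24.6 and 23.6 for the small, in replicates 1 and 2. Over unbound members with a summit it was 21.0 and 22.4. Members as a whole thus differed from the background more in how many had a peak than in how high that peak was. The large subunit's median was above that of all genes in both replicates, which was not tested. In the 10% of genes with the highest signal there were 15 members in each replicate (21.4%), against 10% by construction, and 12 in both (17.1%), against 6.94%, a count added after the data were seen.

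**Figure D3:**
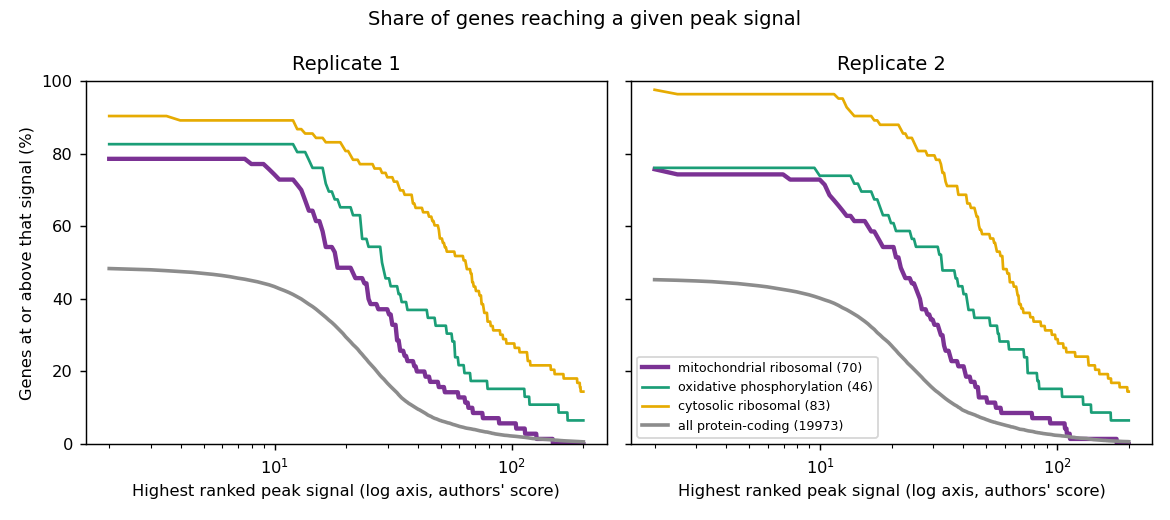
Percent of genes whose highest ranked peak signal in the promoter window is at or above the value on the horizontal log axis, in replicate 1 (left) and replicate 2 (right), for 70 mitochondrial ribosomal, 46 oxidative phosphorylation and 83 cytosolic ribosomal protein genes and all 19973 protein-coding genes. The purple line of the members starts at 78.6% and 75.7% and lies below the gold line of the cytosolic ribosomal genes. It runs above the grey line of all genes except at the highest signals. It falls to 0 above 148.8 in replicate 1 and 178.0 in replicate 2, where some other genes remain.

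The 58 members that were not bound ranged widely. In replicate 1, 43 of them had a ranked summit, with signals from 7.72 to 48.9 and a median of 21.0. In replicate 2, 41 had one, from 2.4 to 54.8 with a median of 22.4. The bound members had 44.7 to 148.8 in replicate 1 and 32.8 to 178.0 in replicate 2. The groups nearly separate in replicate 1, where 1 unbound member exceeds the lowest bound one, and overlap in replicate 2, where 9 do. The threshold acted on these same peaks, so this separation describes the call and is no further result. Thresholded lists hold integer peak scores of 830 or more. Just inside it in the combined set were mrpl-17 with a score of 922 and mrpl-49 with 966. Scores of single replicates come from other lists than the combined scores. Of the unbound members, mrps-17 with 804 and mrpl-40 with 795 came close to the threshold in replicate 2, but each had 177 in replicate 1. mrpl-45, bound with 1000 in the combined set, had 704 in replicate 1.

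The highest unbound member in replicate 1 was mrpl-32, of the family of bacterial L32, with 48.9, and 38.0 in replicate 2. It was followed in replicate 1 by mrpl-48 with 43.1 (40.3 in replicate 2) and mrps-6, of the family of bacterial S6, with 39.3 (22.1 in replicate 2). In replicate 2 the highest were mrpl-40 with 54.8 (38.2 in replicate 1), mrps-16 with 46.3 (32.4) and mrps-17 with 41.1 (32.5). For mrpl-32 the summits of the replicates were 8 bp downstream and 327 bp upstream of the start, so its values do not come from the same spot. The same holds for mrpl-48, with summits 94 bp downstream and 443 bp upstream, although it is 1 of the 12 members in the highest 10% of both replicates. mrps-16 and mrps-17 had both replicates' summits upstream, at 169 and 229 bp for mrps-16 and at 118 and 161 bp for mrps-17.

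The best known member, mrps-5, was not bound. It had 23.6 in replicate 1, above the members' median of 18.2, and 10.9 in replicate 2, below their median of 21.4. dap-3, which encodes a GTP-binding protein of the small subunit but lies outside the family by its symbol, had 23.5 and 24.0 and was not bound either. No ranked summit was listed in either replicate for mrpl-4, mrpl-11, mrpl-15, mrpl-36, mrpl-37, mrpl-38, mrpl-54, mrps-18.C, mrps-31 and mrps-33. A further 7 members had one in replicate 1 alone and 5 in replicate 2 alone.

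**Figure D4:**
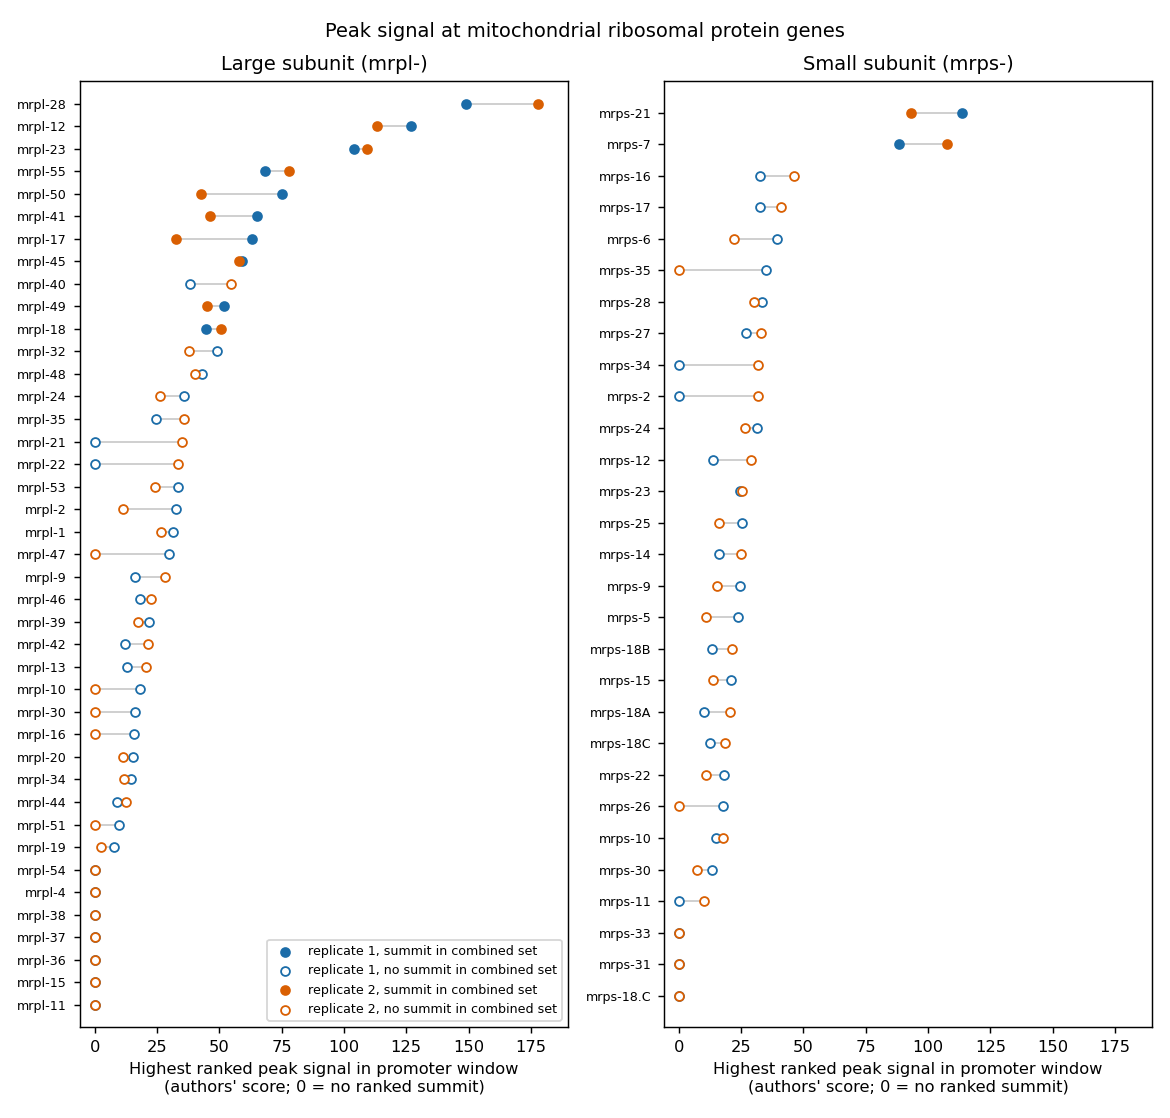
Highest ranked peak signal in the promoter window of each of the 41 large subunit (left) and 29 small subunit genes (right), in replicate 1 (blue) and replicate 2 (orange), on a linear axis where 0 means that no ranked summit was listed. Filled circles are genes with a summit in the combined set and lines join the replicates. mrpl-28 leads the large subunit at 148.8 and 178.0, mrps-21 and mrps-7 stand apart in the small subunit, and 10 genes are at 0 in both replicates.

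The replicates ranked the members in a similar order. Over the 48 members with a summit in both ranked lists, Spearman's rho between the replicates' signals was 0.80, and over the 7448 protein-coding genes with both it was 0.66. This is a description, since the points share the same 2 libraries and some share a peak, as mrpl-1 and mrps-24 do (31.3 in replicate 1 and 26.7 in replicate 2 for each). The replicates' summits were 97.5 bp apart in the median for members and 92 bp for all such genes. They lay within 50 bp of each other for 17 members (35.4%), against 37.4% of all. At the 12 bound genes the order was close, with mrpl-28 first in both replicates. mrpl-17 had the widest relative gap among them, and mrpl-50 came next.

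**Figure D5:**
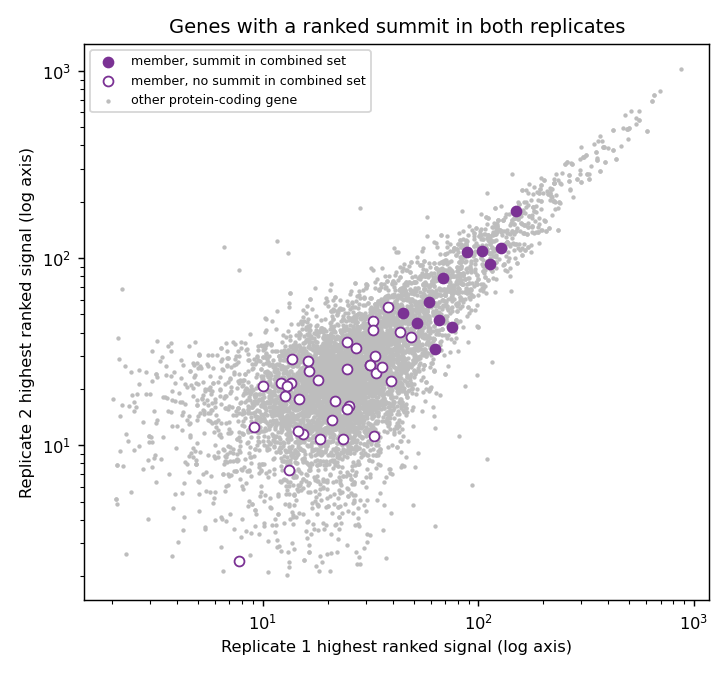
Highest ranked peak signal in replicate 1 (horizontal) and replicate 2 (vertical), both on log axes, for protein-coding genes with a ranked summit in both replicates. Filled purple circles are bound mitochondrial ribosomal protein genes, open circles are the other members and grey dots are other genes. The bound members lie at 44.7 or more in replicate 1, up to 148.8 and 178.0 for mrpl-28.

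The genes sit in crowded neighbourhoods, and worm genes packed on 1 strand are often transcribed together as operons. A gene on the same strand ended within 500 bp upstream of, or overlapped, 29 of 70 members (41.4%), against 20.6% of all protein-coding genes. A gene on the opposite strand lay within 500 bp of, or overlapped, 20 (28.6%), against 13.2%. The overlapped members are mrpl-1 and mrps-27 on the same strand and mrps-23 and mrps-35 on the opposite strand. Overlapping neighbours are counted as close here and in the split below. The median distance to the upstream gene was 309.5 bp for members and 937 bp for all genes, and 41 member windows (58.6%) overlapped another gene's window, against 33.7%. A crowded window can hold a neighbour's peak. The nearest-gene rule drops summits that lie nearer to another protein-coding start, but the nearest start does not show which gene a peak belongs to. With the nearest gene only, 38 members (54.3%) against 42.0% of all genes had a ranked summit in replicate 1, and 45 (64.3%) against 39.7% in replicate 2. The gap to the background was smaller there than with the full window, in both replicates. Members were spread over the autosomes with 22 of 70 on chromosome III (31.4%), which holds 13.2% of protein-coding genes, and none on X, which holds 13.7%.

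Within each kind of neighbourhood, a split added after the data were seen, the share with a ranked summit was higher for members than for all genes. With a close same-strand gene upstream it was 75.9% of members against 57.5% of all genes in replicate 1, and 79.3% against 54.7% in replicate 2. With a close opposite-strand gene it was 95% against 61.3%, and 80.0% against 57.9%. With no gene within 500 bp it was 66.7% against 42.9%, and 66.7% against 39.9%. In the combined set 4 of 29 (13.8%), 3 of 20 (15.0%) and 5 of 21 (23.8%) members of these 3 kinds were bound. Over all genes of each kind it was 6.82%, 12% and 6.16%, so the opposite-strand kind lay closest to its background. Members with a close same-strand gene include mrps-5, 103 bp after sel-1, mrpl-4, 105 bp after mrps-2, and mrps-22, 105 bp after dap-3. A combined-set summit lay inside the gene body of 3 of 70 members, mrpl-17, mrpl-41 and mrpl-50, and in each case this was the summit near the start given above.

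The sequence at the 12 summits had a GC content of 41.9% ± 6.1 (SD, n = 12) with 100 bp to either side, against 43.4% ± 7.5 over 1221 promoter summits of the combined set. The same length upstream of the start had 30% in members, against 33.7% upstream of all protein-coding genes. The summits are thus richer in GC than the DNA next to the members' starts, as promoter summits were in general. Of 7 short motifs searched in these windows on both strands, TTTTTTT was at 5 of 12 member summits, against 26.5% of promoter summits, and 43.4% of all protein-coding genes had it upstream. GAGAGA was at 1 of 12, against 31.0% of promoter summits and 16.4% upstream of all genes. GCGCGC was at 2 of 12 (11.9% of promoter summits, 2.55% upstream of all genes), CTGCGTC at 1 (12.2% and 3.25%) and TATAAA at 1 (13.0% and 30.5%). CACGTG (6.47% and 4.23%) and GGGCGG (10.9% and 6.01%) were at none. With 12 summits, these counts are small, and a match is a description of letters only.

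The shares of other mitochondrial gene lists varied with the peak list, least for stress response and chaperones. Among 24 other genes of mitochondrial gene expression, which include the mitochondrial tRNA synthetases, translation factors and DNA maintenance genes, 4 were bound (16.7%): ears-2 with a combined signal of 296.6, lpd-9 with 217.0, mtss-1 with 105.1 and twnk-1 with 91.2. In the conservative list and in each replicate's own list it was 2 of 24 (8.33%), and lpd-9, at 116.8 in replicate 1, had no ranked summit in replicate 2. Of 13 import genes, timm-17B.1 and tin-9.1 were bound (15.4%), with 1 of 13 in replicate 1's own list and 4 of 13 in that of replicate 2. tomm-20, with ranked signals of 140.1 and 151.1 in replicates 1 and 2, passed in both replicates' own lists. It had no summit in its window in the combined or the conservative list. Of 15 genes of the mitochondrial stress response and chaperones, 5 were bound (33.3%): hsp-60, the chaperonin, with 793.1, jmjd-1.2 with the 222.0 that it shares with mrps-21, phb-2, hsp-6 and atfs-1. In replicate 1's own list it was also 5 of 15, and in the conservative list and replicate 2's own list 6 of 15 (40.0%). The median ranked signal in replicates 1 and 2 was 18.2 and 21.4 for members and 15.2 and 14.5 for the other gene expression genes. It was 15.8 and 22.3 for import, and 22.1 and 24.0 for stress response and chaperones. The share with a ranked summit in replicates 1 and 2 was 78.6% and 75.7% for members. It was 70.8% and 58.3% for the other gene expression genes and 76.9% in both for import. For stress response and chaperones it was 73.3% and 93.3%.

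Members also had a lower bound share and lower median signals than nuclear oxidative phosphorylation genes and cytosolic ribosomal protein genes. Of 46 oxidative phosphorylation genes 15 were bound (32.6%, 20.9 to 47.0), led by cox-5A with 1077.1, and of 83 cytosolic ribosomal protein genes 49 were bound (59.0%, 48.3 to 69.0), led by rpl-3 with 1883.8. The median ranked signal in replicate 1 was 18.2 for members, 28.2 for oxidative phosphorylation and 63.9 for cytosolic ribosomal protein genes. In replicate 2 it was 21.4 for members, 32.5 for oxidative phosphorylation and 58.8 for cytosolic ribosomal protein genes. mrpl-28, the highest member at 319.5, was below 4 bound oxidative phosphorylation genes, which are cox-5A, atp-1, cox-6A and mev-1. The bound-share intervals of oxidative phosphorylation genes and members (10.1 to 27.6) overlap. In replicates 1 and 2, 82.6% and 76.1% of oxidative phosphorylation genes had a ranked summit, against 78.6% and 75.7% of members. For cytosolic ribosomal protein genes it was 90.4% and 97.6%. These differences between lists were not tested.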

How the data were processed

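The data were peak lists of 1 ChIP-seq experiment with 2 biological replicates on the ce11 build, which is WBcel235, per the labels' file listings. The authors deposited, for each replicate and for both together, ranked lists and lists thresholded on the irreproducible discovery rate (IDR), which compares the peak ranks of a pair of inputs. Each deposited peak has an integer score and a peak signal whose scale is not stated, and both are the authors' values. Neither aligner nor caller is given in the sources used here. The control named in the labels was not used here. The labels call the libraries separate biological replicates but do not describe the cultures.

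Genes and starts came from Ensembl release 115, and summits were placed in windows from 1000 bp upstream to 200 bp downstream of each start. Where a window held several summits, the one with the highest signal was counted. All peaks lay within the chromosome lengths of the reference. Sequences came from the RefSeq WBcel235 genome, and 100 bp to either side of a summit were used for GC content and motifs. The members and gene lists were chosen with earlier results of these data known, so no test was made and shares are given beside those of all protein-coding genes with 95% Wilson intervals. Of the related gene symbols listed, 8 matched no gene. Named members were those bound in any thresholded list, the 3 unbound members with the highest signal in each replicate, mrps-5 and dap-3; other members named were chosen after their values were seen. Alternatives were other lists, windows, starts and gene assignments. The window counting was tested on simulated peaks. The software was Matplotlib 3.10.9, SciPy 1.17.1, pandas 2.3.3 and NumPy 2.4.6 under Python 3.11.15.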

Additional observations from a re-analysis of the deposited data

How the results depend on the processing

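The main limits are the few bound members, the summits shared with neighbours and the unknown read depth. Of the 12 bound members, the count was 7 with the 50% of combined summits of highest signal. It was 5 with summits in no other protein-coding window (added after the data were seen), and 6 to 9 in 1 replicate's own list. The large subunit count of 10 of 41 was 5 (12.2%) with the highest 50%, against 4.54% of all genes. In replicate 1's list it was 7 (17.1%) against 4.84%. In that of replicate 2 it was 4 (9.76%) against 5.5%, beside 6.9% for the small subunit. The small subunit count of 2 of 29 was 1 (3.45%) with the narrower window or the nearest gene only, against 5.16% and 5.49% of all genes. With the wider window it was 5 (17.2%) against 10.1%. With the narrower window, the wider window and the nearest gene only, the percent with a ranked summit in replicate 1 was 64.3, 87.1 and 54.3 for members, against 35.0, 59.6 and 42.0 for all genes. In replicate 2 it was 62.9, 88.6 and 64.3 for members, against 33.9, 55.2 and 39.7 for all genes. The median ranked signal under the same 3 settings was 11.3, 25.6 and 9.44 for members in replicate 1, against 0, 16.0 and 0 for all genes, and 11.1, 26.7 and 13.1 for members in replicate 2, against 0, 12.2 and 0; with members that lack a summit left out it was 25.2 and 26.7. Shared summits numbered 13 of 16 with the wider window, 4 of 9 in replicate 1's list and 3 of 6 in that of replicate 2. The median position ranged from −351 to −143 bp between the replicates' own lists. Mean GC was 46.8% with 50 bp and 36.5% with 200 bp to either side of the summit. The causes were not tested beyond what each setting does by construction. The wider window kept all 12 bound members by construction, since it contains the main window. The conservative list kept 11 of them. No paired analysis was possible because the series has 1 group and no result comes from a test.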

Other observations

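The letters CGCAAAC, on either strand, were searched for after they had been seen in the printed summits, so their count at those summits is not independent of the choice. With 100 bp to either side of the summit they were at 5 of 12 bound members (41.7%, 95% Wilson interval 19.3 to 68.0), mrpl-28, mrpl-12, mrpl-55, mrpl-49 and mrpl-45, the last with 2 matches. Match centres lay 10 bp upstream of the summit at mrpl-12, 12 bp upstream at mrpl-28, 16 and 34 bp downstream at mrpl-45, 41 bp downstream at mrpl-49 and 59 bp downstream at mrpl-55. The other promoter summits of the combined set, which did not enter the choice, held them at 67 of 1207 (5.55%, 4.39 to 6.99). Windows 600 bp to either side of those summits held them at 32 of 2414 (1.33%, 0.941 to 1.87), and combined summits outside promoter windows at 40 of 1772 (2.26%). In the same length upstream of the start, 7 of 70 members held them (10%), 4 of 58 unbound members (6.9%, 2.71 to 16.4), and 2.2% of all protein-coding genes. The 70 include the bound members at whose summits the letters were noticed, so their 10% is not independent of the choice either. No factor was matched to these letters, and no test was made.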
